A study of Saccharomyces cerevisiae with 5 samples.

Results

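The 10 genes described here are PHO3, PHO5, PHO8, PHO11, PHO12, PHO81, PHO84, PHO89, SPL2 and VTC3. They were listed as the phosphate starvation regulon of budding yeast (Saccharomyces cerevisiae), although PHO3 is known as the constitutive acid phosphatase. They are 10 of the 6205 open reading frames (ORFs) with a spot on the arrays. They were picked by name with their ratios on all 5 arrays, and the contrast of arrays 1 to 3 with arrays 4 and 5, already known. Their ratios are therefore described without a test. The study grew cells overnight in rich YP medium with 2% glucose, then diluted them (OD600 0.1) into fresh YP that held either 2% or 20% glucose. Cells of each medium were frozen after 1 hour, and their total RNA was labelled by reverse transcription with Cy5 or Cy3. Each of the 5 two-colour arrays carried RNA of both media. RNA of 20% glucose was in Cy3 on arrays 1, 3 and 4 and in Cy5 on arrays 2 and 5. The labels name no strain, genotype or separate cultures for the arrays, so all errors here are the spread between arrays, which may be technical.

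Yeast takes up inorganic phosphate through transporters of high and of low affinity and stores it as polyphosphate in the vacuole. When phosphate runs short, Pho81 inhibits the cyclin-dependent kinase Pho80-Pho85, and the transcription factor Pho4 stays in the nucleus, where it acts with Pho2. Its targets encode high-affinity transporters, secreted phosphatases that release phosphate from organic compounds, and enzymes of the polyphosphate store.

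All values are log2 ratios of RNA labelled 20% over RNA labelled 2% glucose, in the direction that the dye labels give. Known responses to high glucose and to osmotic stress mostly run the other way in these data. GPD1, the osmotically induced glycerol 3-phosphate dehydrogenase, had ratios of -2.02, -1.78, -2.43, -6.88 and -6.51 on arrays 1 to 5 (-3.96 ± 0.97, adjusted p = 0.0733). STL1, also used to check the labels, was near 0 on arrays 1 and 3 (-0.10 and 0.08). It had no value on array 2 and lay at -6.7 and -5.6 on arrays 4 and 5. HXT1, a hexose transporter known to be induced by high glucose, lay at -2.54 ± 0.26 (SE of the limma fit, adjusted p = 0.0294) and was lower on 5 of 5 arrays, although its spot in the RNA labelled 20% was near background on array 5 (1.95 times). HXT2, a transporter known to be repressed by high glucose, lay at 2.26 ± 0.15 (adjusted p = 0.00924) and was higher on 5 of 5 arrays. The sign of every phosphate gene below hangs on the same dye labels: in the sign of the deposited table the same genes have negative ratios. The text therefore speaks of RNA labelled 20% and RNA labelled 2%. The ratios of arrays 4 and 5, which have opposite dyes, correlated at r = 0.951 over 5371 ORFs, those of arrays 1 to 3 with each other at 0.597 to 0.861, and those of 1 array of each set at 0.256 to 0.374. Across all ORFs the SD of the ratios was 0.41 to 0.49 on arrays 1 to 3 and 0.54 on both of the others.

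The phosphate genes had more signal in the RNA labelled 20% on nearly every array. Of the 10 genes, 9 had a positive ratio on every array with a value, against 17.2% of the 5447 ORFs measured on 4 or 5 arrays. The exception was PHO5 on array 1. The median of the 10 genes was 0.64, 0.85, 1.02, 1.99 and 2.01 on arrays 1 to 5, while the median of all ORFs lay between -0.01 and 0.00 on each. At least 2-fold more signal in the RNA labelled 20% was seen for 4 of 10 genes on arrays 1 and 2, where 1.31% and 2.42% of all ORFs reached that ratio, and for 5 of 9 on array 3, where 3.92% did. On arrays 4 and 5 it was seen for 9 of 10, where 3.54% and 3.89% of all ORFs did. The gene that stayed under 2-fold on these arrays was PHO89. With the glucose and the dye terms fitted over all arrays, the estimates of the 10 genes ran from 0.69 (PHO81) to 2.30 (PHO12). Single arrays weighed on them: without array 5 PHO81 was at 0.38 and PHO12 at 1.45, and without array 4 PHO5 was at 1.19 in place of 2.04. In RNA of whole cultures, more cells that express a gene and more of its RNA per cell cannot be told apart.

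**Figure D1:**
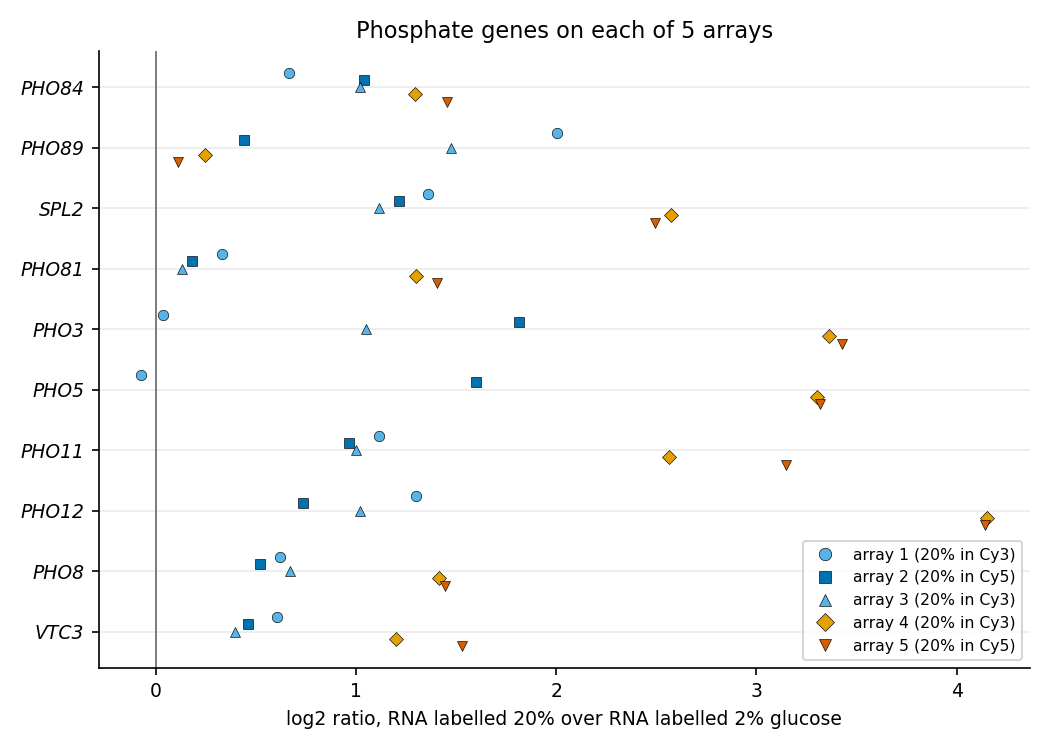
Log2 ratio (x axis, RNA labelled 20% over RNA labelled 2% glucose) of the 10 phosphate genes (rows) on each of 5 arrays, 1 symbol per array, blue for arrays 1 to 3 and orange for arrays 4 and 5. The orange symbols lie to the right of the blue ones for 9 genes and to the left for PHO89; PHO12 reaches 4.15, and the blue symbols of PHO3, PHO5 and PHO89 are the most spread out.

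The phosphate transporters of the plasma membrane followed different patterns. PHO84, the high-affinity proton and phosphate symporter, had ratios of 0.67, 1.04, 1.02, 1.29 and 1.45 on arrays 1 to 5. Of the 10 genes its values had the smallest SD over all arrays, with a mean of 1.10 ± 0.30 (SD, n = 5), and arrays 4 and 5 were the highest. PHO89, the sodium and phosphate symporter, had ratios of 2.00, 0.44, 1.47, 0.24 and 0.11. It was 4.01-fold higher in the RNA labelled 20% on array 1, where it ranked 10 among 5659 ORFs, and 1.08-fold on array 5, where it ranked 2070 among 5556. Arrays 1 and 3 were high, array 2 was lower and arrays 4 and 5 were the lowest. The first set averaged 1.31 ± 0.79 (SD, n = 3). The second averaged 0.18 ± 0.09 (SD, n = 2), below the first, whereas for PHO84 the second set was the higher one.

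Genes that control uptake and signalling were next. SPL2, known to restrain low-affinity phosphate transport when phosphate is scarce, had ratios of 1.36, 1.22, 1.11, 2.57 and 2.49. The values of arrays 1 to 3 lay within 0.25 of each other and those of arrays 4 and 5 within 0.08, and the sets did not overlap. It was 2.34-fold higher on average on the first set and 5.79-fold on the second. PHO81, the inhibitor of Pho80-Pho85, had ratios of 0.33, 0.18, 0.13, 1.30 and 1.40. On arrays 1 to 3 this was 1.09-fold to 1.26-fold, at best rank 940 of 5659 ORFs, and on arrays 4 and 5 it was 2.47-fold and 2.64-fold.

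The 4 secreted acid phosphatases had the highest estimates over all arrays, but not the highest ratios on every array: PHO89 led on arrays 1 and 3, and PHO3 and PHO5 were the lowest of the 10 genes on array 1. The deposited annotation gives the same ORF length, 1404 bases, for PHO3, PHO5, PHO11 and PHO12, which are similar in sequence, and their spots may not separate them. PHO3 and PHO5 are neighbours on chromosome II in the RefSeq gene table. PHO12, a phosphate-repressed acid phosphatase, had ratios of 1.30, 0.74, 1.02, 4.15 and 4.14. On arrays 4 and 5, at 17.8-fold and 17.7-fold, it ranked 1 among 5792 and among 5556 ORFs, and on array 2 it ranked 270. PHO11, its near-identical copy, had ratios of 1.11, 0.96, 1.00, 2.56 and 3.15. PHO11 and PHO12 differed by 0.02 on array 3 and by 1.59 on array 4.

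PHO5, the main phosphate-repressed acid phosphatase, had ratios of -0.07, 1.60, 3.30 and 3.32 on arrays 1, 2, 4 and 5, with no value on array 3. PHO3, known as the constitutive acid phosphatase and not as a target of Pho4, had ratios of 0.04, 1.81, 1.05, 3.37 and 3.43. PHO3 and PHO5 stayed within 0.06 to 0.21 of each other on their 4 shared arrays, while PHO3 and PHO11 differed by up to 1.08 and PHO5 and PHO12 by up to 1.37, both on array 1. Array 1 was thus near 0 for PHO3 and PHO5 and above 1 for PHO11 and PHO12. On arrays 4 and 5 PHO3 ranked 4 and PHO5 ranked 5 among all ORFs.

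The vacuolar genes had lower estimates over all arrays than the acid phosphatases, at 0.94 ± 0.19 (SE) for PHO8 and 0.86 ± 0.20 for VTC3. PHO8, the alkaline phosphatase of the vacuole, had ratios of 0.62, 0.52, 0.67, 1.42 and 1.45. Its first 3 values lay within 0.15 of each other and the last 2 within 0.03. VTC3, a subunit of the complex that makes polyphosphate, had ratios of 0.60, 0.46, 0.40, 1.20 and 1.53. For both genes arrays 4 and 5 were above all of arrays 1 to 3, at 2.69-fold and 2.57-fold on average.

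Scanner intensities, known for arrays 4 and 5 alone, show how much signal lay behind these ratios. Each of the 10 spots was above background in both channels of both arrays, by 10.9 to 268 times in the RNA labelled 20% and by 6.40 to 133 times in the RNA labelled 2%, and none was saturated. PHO12 read 24028 units (local background 255) in the RNA labelled 20% and 1643 (background 197) in the RNA labelled 2% on array 4, and 10088 (82) and 551 (83) on array 5. PHO5 read 23941 and 2581 on array 4 and 11432 and 946 on array 5. PHO84 read 28125 and 10921 on array 4 and 13685 and 3402 on array 5. The RNA labelled 20% was brighter with either dye for these genes. PHO89 read 11491 and 10079 on array 4 and 8440 and 5537 on array 5, before the channels were scaled to each other. Its ratios near 0 on these arrays therefore came from bright spots in both channels. For the other genes except PHO3 and PHO11, the deposited values of both arrays were 10 times larger than the ratios given here, as explained with the processing. For PHO3 and PHO11 this held on array 5 alone. The scanner ratios after background subtraction need no division by 10, but here the channels were not scaled to each other, unlike in the deposited ratios. They were 4.04 and 4.42 for PHO12, 3.35 and 3.78 for PHO3 and 1.37 and 2.03 for PHO84. PHO81 had the dimmest spot in the RNA labelled 20%, at 1424 units on array 4 and 1874 on array 5.

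**Figure D2:**
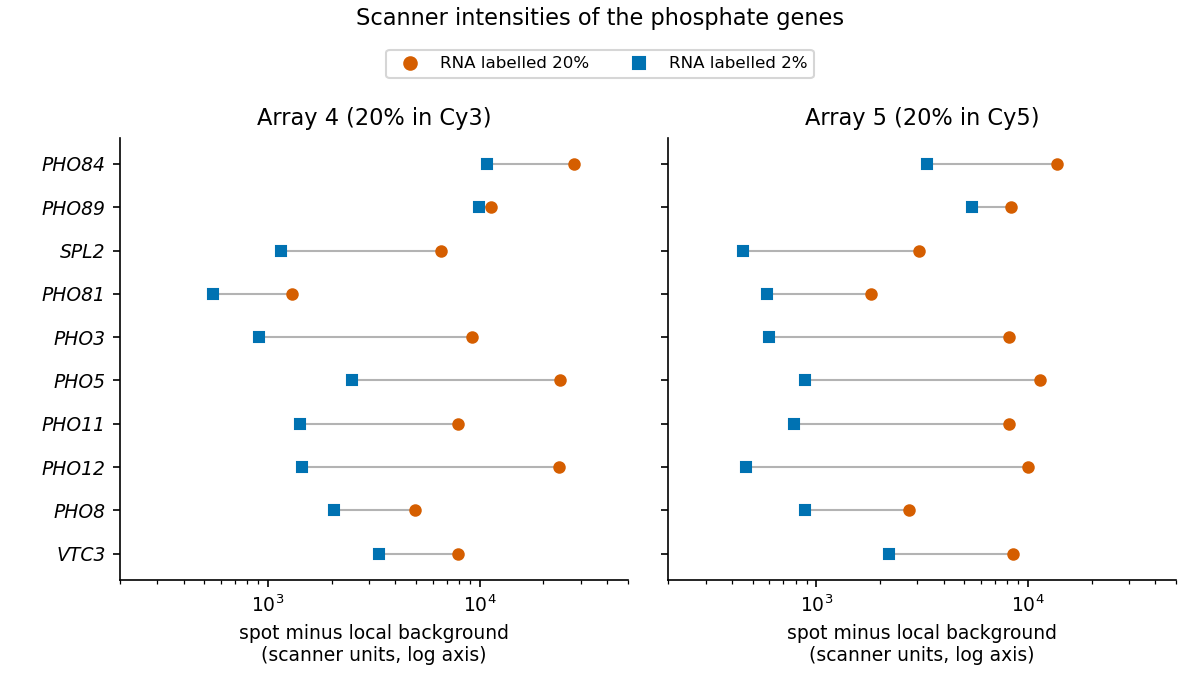
Spot intensity minus local background (x axis, scanner units, log scale) of the 10 phosphate genes (rows) on array 4 (left) and array 5 (right), circles for the RNA labelled 20% and squares for the RNA labelled 2% glucose, joined by a line within each spot. The circle lies to the right of the square for each gene on both arrays; the shortest lines are those of PHO89 and the longest those of PHO12.

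The ratios of arrays 1 to 3 and of arrays 4 and 5 did not overlap for any of the 10 genes. Arrays 4 and 5 were above arrays 1 to 3 for 9 genes and below for PHO89, where the same holds for 30.0% and 29.1% of 5051 ORFs. The gene list was chosen with this contrast in view, so nothing is read from these shares. The difference of the means, arrays 4 and 5 minus arrays 1 to 3, was 3.13 for PHO12, 2.55 for PHO5, 2.43 for PHO3, 1.83 for PHO11 and 1.30 for SPL2. It was 1.14 for PHO81, 0.88 for VTC3, 0.83 for PHO8, 0.46 for PHO84 and -1.13 for PHO89. The mean ratio reached 1 on arrays 4 and 5 for 9 of 10 genes (3.71% of all ORFs with both values) and on arrays 1 to 3 for 4 of 9 (2.09%). These 4 were PHO11, PHO12, PHO89 and SPL2. The SD within arrays 1 to 3 was 0.08 for PHO11 and 0.07 for PHO8, and 0.89 for PHO3. Array 2, the one array of its set with 20% in Cy5, was 1.27 above the mean of arrays 1 and 3 for PHO3 and 1.30 below it for PHO89. Within that set, the dye and the array cannot be told apart. On arrays 4 and 5, which also have opposite dyes, PHO3 differed by 0.06 and PHO89 by 0.13.

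Some markers of stationary phase cells, which could come from the overnight cultures, also differed between the sets. Of 8 such genes 6 were tested, and 4 of them (SNZ1, SNO1, SSA3 and GRE1) were higher in the second set past an adjusted p of 0.05 in limma, against 6.61% of all ORFs tested. The other tested markers did not pass: the set difference was -0.65 ± 0.33 for SPG5 (adjusted p = 0.245) and 0.01 ± 0.19 for FMP45 (adjusted p = 0.969). The median of the markers with a value was -0.24, -0.26 and 0.18 on arrays 1 to 3 and 0.59 and 0.68 on arrays 4 and 5, from -1.26 to 2.31 for single markers. In the fit over all arrays 0 of 6 were higher (2.24% of all ORFs) and 1 was lower (1.45%): FMP45 lay at -0.84 ± 0.10 (adjusted p = 0.0422), below 0 on the 4 arrays with a value. The part of these cells in the ratios of the phosphate genes was not tested.

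**Figure D3:**
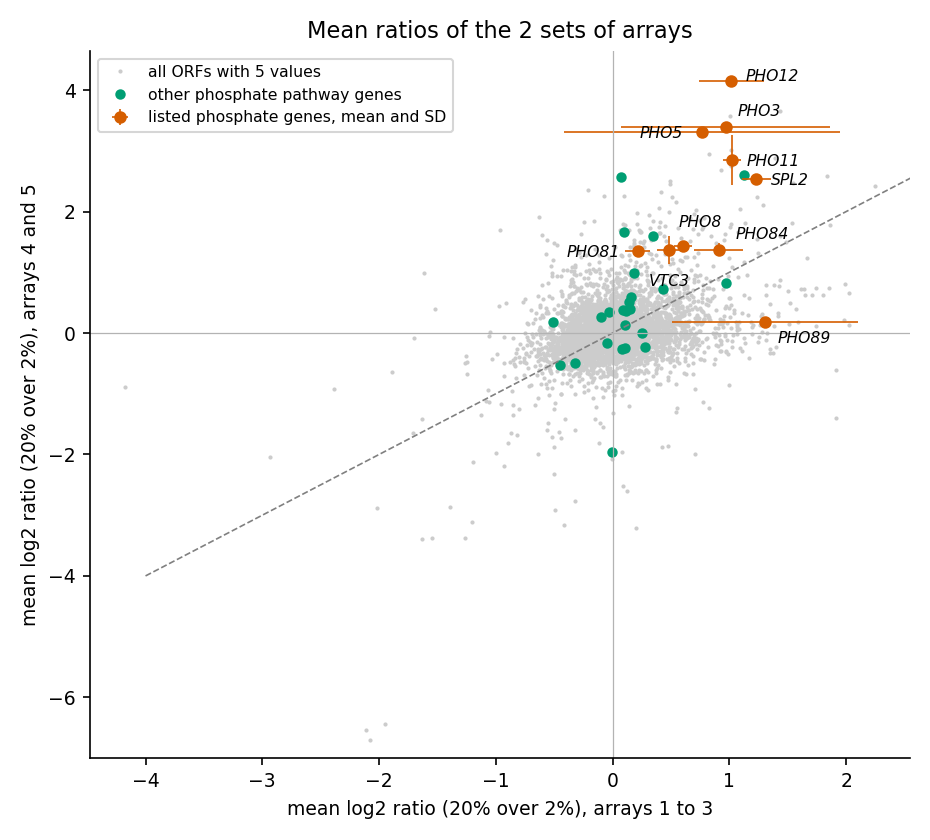
Mean log2 ratio (RNA labelled 20% over RNA labelled 2% glucose) on arrays 1 to 3 (x axis) and on arrays 4 and 5 (y axis), grey for all ORFs with 5 values, green for other phosphate pathway genes and orange for the 10 listed genes with the SD of each set (PHO5 has 2 values on the x axis). The dashed line marks equal means: PHO12 (1.02 and 4.15) lies far above it, PHO84 (0.91 and 1.37) near it and PHO89 (1.31 and 0.18) below it.

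Further genes of phosphate metabolism were tested for the glucose label and for the difference between the sets. They were listed by their known function with earlier results of these data known, so the calls are no independent test of the pathway. Of 30 such genes 27 had enough values for the test, and VTC2, DIA3 and SIW14 (0.44 on array 4, its 1 value) did not. GDE1, which splits glycerophosphocholine, was higher in the RNA labelled 20% (0.90 ± 0.13, 1.86-fold, adjusted p = 0.0426), on 5 of 5 arrays. It was the 1 gene of 27 called higher, against 2.24% of all 5447 ORFs tested (3.69% were called in either direction). Its call ended without array 1, 2, 3 or 5 (adjusted p of 0.0905, 0.13, 0.158 and 0.181). On arrays 4 and 5 the spot of GDE1 was 5.69 and 6.86 times background in the RNA labelled 20%. In the RNA labelled 2% it was 4.08 and 3.83 times background. By limma 0 of 27 were called lower, against 1.45% of all ORFs. At an unadjusted p under 0.05, 7 of 27 were higher and 2 lower, against 14.5% and 14.0% of all ORFs. The median of the 27 estimates was 0.16, and 19 were positive, against 50.4% of all ORFs. For comparison, the 10 listed genes had a median of 1.44.

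The difference between the sets passed in limma for 6 of the 27 genes, where 12.8% of all ORFs tested did. In 4 of them the second set was the higher one (6.61% of all ORFs) and in 2 the lower one (6.17%). Among genes of the polyphosphate store, VTC1 had ratios of 0.63, 0.36, 0.05, 1.44 and 1.75 (difference 1.22 ± 0.21, adjusted p = 0.022). VTC4, the catalytic subunit of the polyphosphate polymerase, had ratios of 0.13, 0.27, 0.15, 0.98 and 0.99 (difference 0.79 ± 0.13, adjusted p = 0.0194). Both differed in the direction seen for VTC3. VTC2, named after its values were seen, had values on arrays 4 and 5 alone, 1.24 and 1.34. PPN1, which cuts polyphosphate, had the opposite difference (-0.55 ± 0.12, adjusted p = 0.0422) with ratios of -0.36 and -0.12 on arrays 4 and 5. PPN2, another polyphosphatase, was at 0.57 ± 0.14 over all arrays (adjusted p = 0.075).

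In the signalling branch, PHO4, the transcription factor itself, had ratios of -0.60, -0.44, -0.50, 0.14 and 0.22 (difference 0.67 ± 0.13, adjusted p = 0.0262). It was lower in the RNA labelled 20% on arrays 1 to 3 and higher on arrays 4 and 5. PHO2 was at 0.28 ± 0.11 over all arrays (adjusted p = 0.161) and VIP1, an inositol pyrophosphate kinase, at 0.21 ± 0.09 (adjusted p = 0.201). PHO80 and PHO85 lay between -0.27 and 0.29 on every array.

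Among transporters of low affinity and related proteins, PHO87 was at -0.40 ± 0.09 (adjusted p = 0.0606) and below 0 on 5 of 5 arrays. PHO90 and PHO91, named after their values were seen, lay above 0 on 4 and on 5 of 5 arrays. They were at 0.19 ± 0.10 (adjusted p = 0.275 in limma) and 0.11 ± 0.08 (adjusted p = 0.402). SYG1, thought to export phosphate, was at -0.46 ± 0.13 (adjusted p = 0.0878). GIT1, which takes up glycerophosphoinositol, was named after its values were seen. It had ratios of 2.65, 0.11, 0.63, 2.60 and 2.60, and so was high on arrays 1, 4 and 5 (1.66 ± 0.46, adjusted p = 0.0918).

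PHM8, known as a phosphatase of nucleotides, had ratios of -0.36, 0.49, 0.16, 1.57 and 1.74 (difference 1.49 ± 0.21, adjusted p = 0.0127). PHM7 differed in the other direction, with ratios of 0.01, 0.02 and -0.05 on arrays 1 to 3 and of -1.93 and -1.98 on arrays 4 and 5 (difference -1.95 ± 0.13, adjusted p = 0.00329). PHM6 had ratios of 1.68, -1.49, 0.01, 2.29 and 2.85 without passing (difference 2.68 ± 0.76, adjusted p = 0.0748). That difference was 1.44 without array 2 or array 5, 3.30 without array 1 and 4.33 without array 4. Those fits leave 1 residual degree of freedom, so their p-values do not measure the spread of PHM6 and are not given. The PHM6 spot in the RNA labelled 2% was 3.89 and 2.99 times background on arrays 4 and 5. DIA3, an acid phosphatase homolog named after its values were seen, had ratios of 0.30 on array 3 and -1.24 and -1.33 on arrays 4 and 5, opposite in sign to PHO3, PHO5, PHO11 and PHO12 there. Calls of the set difference for PHO4, VTC1, VTC4 and PPN1 each ended without array 2, 4 or 5, that of PPN1 also without array 3 and that of PHM8 without array 4. The call of PHM7 remained without any 1 array, but such fits leave 1 residual degree of freedom.

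**Figure D4:**
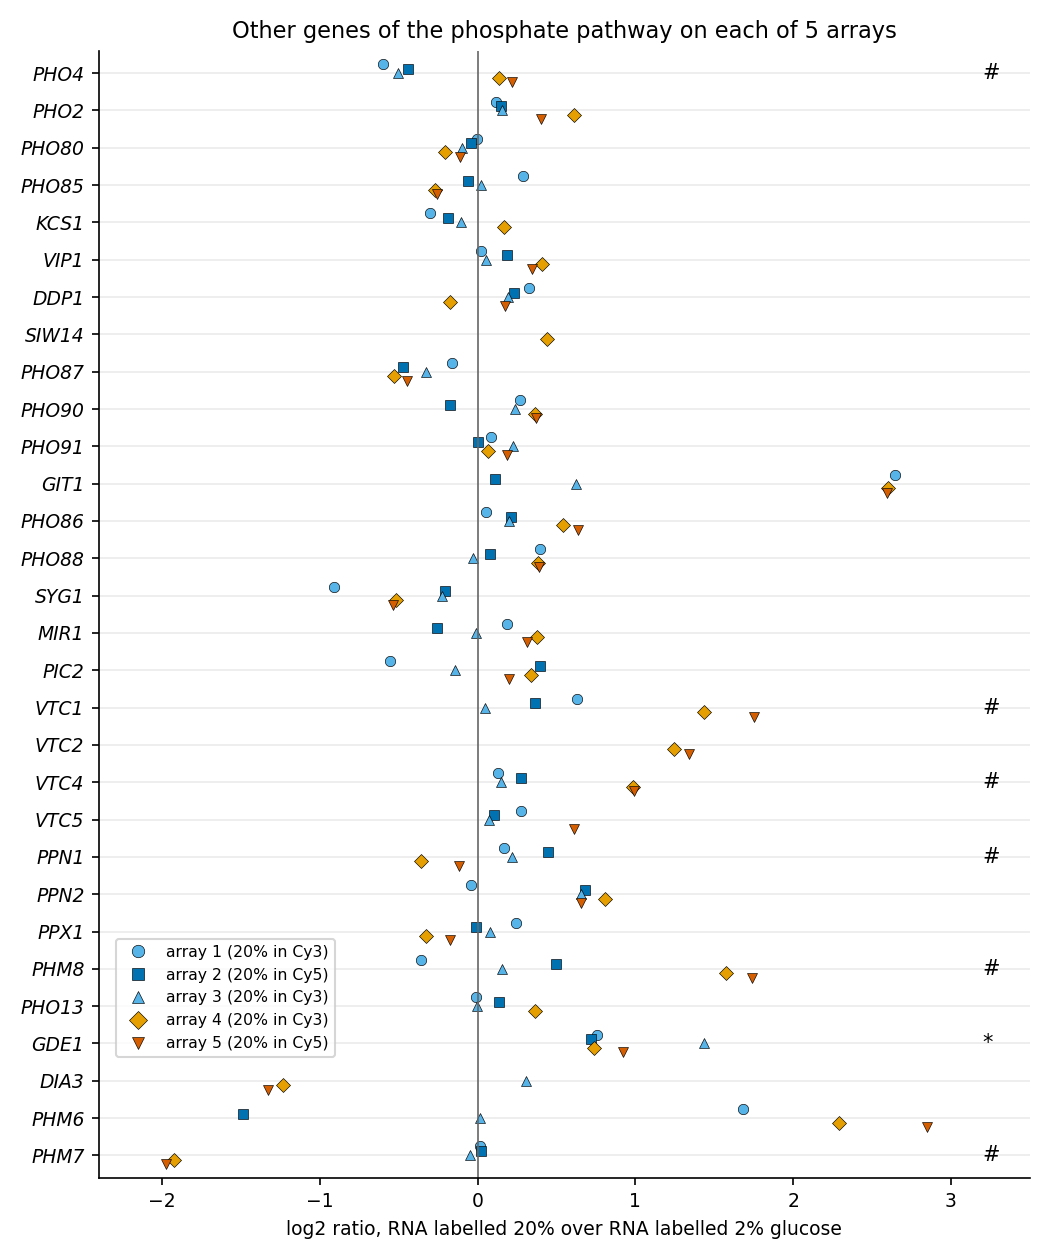
Log2 ratio (x axis, RNA labelled 20% over RNA labelled 2% glucose) of the 30 other phosphate pathway genes (rows, ordered by function) on each of 5 arrays, 1 symbol per array, blue for arrays 1 to 3 and orange for arrays 4 and 5. A star marks the gene called in the 5-array fit (GDE1) and a hash the 6 genes with a called difference between the sets (PHO4, VTC1, VTC4, PPN1, PHM8 and PHM7); orange symbols of PHM7 lie near -1.95, opposite to those of VTC1 and PHM8.

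Genes outside the pathway with a like pattern were sought among 4660 ORFs with 5 values, by the root-mean-square distance of the 5 ratios from the median of the 10 phosphate genes on each array. The nearest were COX6 (distance 0.11) and COX4 (0.12), subunits of cytochrome c oxidase, and ATG19 (0.14), a receptor of selective autophagy. SDH1, SDH2, ATP2, ASK10 and MDH1 followed, at 0.25 to 0.27. COX6 had ratios of 0.57, 0.74, 0.93, 1.82 and 1.91 on arrays 1 to 5. The phosphate genes themselves lay farther from their own median, at 0.41 (PHO84) to 1.39 (PHO12) for the 9 with all values. Their median is thus not the profile of any one of them.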

How the data were processed

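Per array, the authors deposited 1 column of log2 channel ratios with a median near 0. No software for this step is given in the labels. Deposited scanner files of arrays 4 and 5 hold, per the file headers, the median intensity of each spot and its local background at both wavelengths, log2 ratios and a flag score. Of 6298 rows, 80 are controls; 13 ORFs with 2 spots were averaged. On arrays 4 and 5, 258 and 262 deposited values are 10 or more in size, 10.2 times the scanner ratio in the median, and were divided by 10. The correlation with the scanner ratios then rose from 0.775 to 0.991 on array 4 and went from -0.770 to -0.964 on array 5. By these signs and the dye labels the table is 2% over 20% glucose, so all values were multiplied by -1; arrays 1 to 3, with no scanner files used here, were taken to run the same way.

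The 5447 ORFs measured on 4 or 5 arrays were fitted with limma 3.58.1 in R 4.3.3 (lmFit, eBayes), with terms for glucose and dye, and for the set of arrays where sets were compared. Tests were two-sided with Benjamini-Hochberg adjustment over all ORFs at a threshold of 0.05. The fits leave 3 and 2 residual degrees of freedom with 5 values, and the number of arrays limits the precision. The fits were also run on simulated data. The simulated glucose changes came with no difference between the sets, so these runs do not cover that part of the spread. A spot under 2 times its background counted as near background. The members and lists were chosen with earlier results of these data known. Named genes are the 10 members, other pathway genes past the threshold or with the 2 smallest p-values of their function, the genes used to check the labels, and the 8 nearest profiles. The stationary phase markers are a list of their own. Named outside this rule and that list, after their values were seen, were PHO80, PHO85, PHO90, PHO91, GIT1, VTC2, DIA3 and SIW14. Symbols came from a RefSeq gene table (assembly R64) that matched 5705 of 6205 ORFs; PHO88 was matched by its synonym.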

Additional observations from a re-analysis of the deposited data

Results flagged for a closer look

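A single array lay apart from the other 4 for 3 of 30 genes checked, where chance gives about 1 in 20. PPN2 was at -0.0394 on array 1 and between 0.65 and 0.81 on the others. GDE1 was at 1.44 on array 3, and HXT2 at 1.54 on array 2. None of the 10 phosphate genes had such an array, but the check sees only a single value that lies apart from all others. Arrays 4 and 5 lay close together and apart from arrays 1 to 3 for most of these genes, which can hide such an array.

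The difference between arrays 4 and 5 and arrays 1 to 3 passed the threshold in limma for PHO4 (0.67), VTC1 (1.22), VTC4 (0.79), PPN1 (-0.55), PHM8 (1.49) and PHM7 (-1.95) of the other phosphate pathway genes. It also passed for 4 genes used to check the labels, GPD1 (-4.69, adjusted p = 0.00102), GPP2 (-1.80, adjusted p = 0.0041), STL1 (-6.65, adjusted p = 0.00165) and HXT4 (-1.66, adjusted p = 0.0481).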

How the results depend on the processing

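The median ratio of the 10 phosphate genes was 1.44 in the 5-array fit and stayed between 0.95 and 1.98 with either set of arrays alone, no dye term, a set term, scanner ratios or complete genes, and between 1.12 and 1.66 when any 1 array was left out; the median set difference of 1.22 was 1.24 with scanner ratios, 1.14 for complete genes and 1.17 to 1.28 without any 1 array. Without the division by 10 these became 7.61 and 14.85. PHO5 has no value on array 3. The medians for arrays 1 to 3 alone and for complete genes are therefore of the other 9 genes. No ratio or set difference of the 10 genes changed sign in any setting tried. Counts of calls depended strongly on the fit. The 122 higher and 79 lower genes became 463 and 456 with no dye term, 894 and 724 with a set term, 1 and 0 as deposited, 593 and 308 on arrays 1 to 3 and 1496 and 1428 on arrays 4 and 5, and 120 were lower among complete genes. Other pathway genes called higher and lower, 1 and 0, became 3 and 2, 10 and 3, 0 and 0, 1 and 1, and 15 and 6 in the first 5 of these settings. The 696 set differences became 1183 with no dye term and 326 as deposited. Leaving out 1 array gave 0 to 67 genes higher, 0 to 36 lower, 0 to 1 other pathway genes higher, and 96 to 2225 set differences with 2 to 14 in the pathway; fits without an array have 1 residual degree of freedom for the set difference, and a set of 1 array is assumed to vary like the others. Estimates that changed sign were PHM6 (-0.32) and PHM7 (0.0012) on arrays 1 to 3, PHO4 (0.18) and PPN1 (-0.24) on arrays 4 and 5 and, leaving out 1 array each, PPN1 (range -0.0544 to 0.227) and PHM6 (-0.0784 to 2.09). Set differences that changed sign were SYG1 with scanner ratios (0.0407) and, leaving out 1 array each, SYG1 (-0.330 to 0.0525), GDE1 (-0.357 to 0.20), PHO87 (-0.285 to 0.0259) and PPN2 (-0.0254 to 0.501). PPN1's called set difference ended with scanner ratios (adjusted p = 0.0554). The cause was not tested. No paired analysis was possible because the arrays form 1 group with no shared replicate numbers; the media are already paired within each array, since each ratio compares them.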
